A study of Mus musculus with 2 samples.

Results

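The genes described here are those of the protein shell of the skin surface. They are the transglutaminases Tgm1, Tgm2, Tgm3 and Tgm5, and the scaffold proteins involucrin (Ivl), loricrin (Lor), envoplakin (Evpl) and periplakin (Ppl). They were chosen by name: every probe that is not a control spot and whose gene name in the scanner files is one of these was taken, which gave 11 probes for 8 genes of the 30193 genes with a usable probe. All 11 probes were well above background on both arrays, so no gene was lost to a filter on dim signal.

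Skin of newborn mice at postnatal day 0, on the C57BL/6N background, was compared between wild-type littermates (Pnpla1+/+) and knockout mice (Pnpla1-/-). By the study's methods the knockout descends from a knockout-first allele whose reporter and selection cassettes were taken out with flippase, and the mice are homozygous in the whole animal. Pnpla1 encodes the lipase family member that completes the linoleate-bearing acylceramides of the epidermis. Equal amounts of RNA from 6 animals of a genotype were pooled and hybridized, in 1 fluorescent dye, to 1 array, so the study holds 2 arrays and no replicates. The labels call the tissue skin, while the description of the design speaks of epidermis. Markers of dermal fibroblasts (Col1a2, 275482 and 201776 intensity units in the Pnpla1+/+ and Pnpla1-/- pools) and of skeletal muscle (Tnnc2, 181746 and 157530) were bright on both arrays, as were those of epidermis (Krt5, 220487 and 210699, and Krt10, 277989 and 262540), so dermal and muscle RNA was present beside that of epidermis. A single array a genotype allows no test, and the differences below belong to these 2 pools, with nothing known of the spread between mice.

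The cornified envelope is the protein shell that replaces the plasma membrane of a keratinocyte as it dies at the surface. Envoplakin and periplakin, which belong to the plakin family, first line the membrane together with involucrin, and loricrin, the bulk protein of the shell, is added later. Transglutaminases are calcium-dependent enzymes that weld these proteins together through bonds between glutamine and lysine side chains. TGM1 is anchored to the membrane, TGM3 is a soluble enzyme of the granular layer and hair follicle that is activated by cleavage, TGM5 acts in the upper epidermis, and TGM2 is the widespread tissue transglutaminase. The finished shell carries a coat of ceramides joined to involucrin and its partners, whose precursors are made by the pathway that Pnpla1 serves. Loss of TGM1 causes a congenital ichthyosis in humans, and loss of TGM5 causes a skin peeling disorder.

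The results on the transglutaminases turn on 4 probes, so their ends are shown. Each probe is an oligonucleotide of 60 bases, of which the last 30 are given 5′ to 3′, in the sense of the transcript. The listed positions are on mm9, and the annotation in the files gives the base of the transcript at which a probe starts, but no exon or untranslated region. Tgm3 is shown with both of its probes because they disagree.
Tgm1 (chr14:56319032-56319091, minus strand, base 2555 of the transcript): ggcatatcgaggtggagcttaaccctgggc
Tgm3, first probe (chr2:129874069-129874128, plus strand, base 2043): caatcaaggccatgctgcccattgatgtct
Tgm3, other probe (chr2:129876035-129876094, plus strand, base 4009): ctgttgtttgatctgcagaattacagcagg
Tgm5 (chr2:120871953-120872012, minus strand, base 2365): atccaaccagcatacatggtgcacatacat
The starts of the Tgm3 probes lie 1966 bases apart both in the transcript and in the genome, so by these positions no intron separates them.

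The label of the knockout was checked on Pnpla1 itself. Its probe (chr17:29026908-29026967) read 579 intensity units in the Pnpla1+/+ pool and 114 in the Pnpla1-/- pool. After division of each array by its 75th percentile, which was 2108 for the wild-type pool and 1734 for the knockout pool, the log2 difference was -2.07. Differences below are log2 of the scaled signal in Pnpla1-/- minus that in Pnpla1+/+ skin, and a gene was counted as higher or lower from 2-fold, a log2 difference of 1. Over all 22400 genes with a difference, the median was 0.00, 6.68% were at least 2-fold higher in the knockout pool and 3.04% at least 2-fold lower. Without scaling these shares were 4.46% and 6.37%. With the arrays centred on spike-in controls they were 3.72% and 9.75%.

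Against that background, 3 of the 8 genes were at least 2-fold higher in Pnpla1-/- skin and 0 were lower. All 3 were transglutaminases, Tgm1, Tgm3 and Tgm5, and the fourth, Tgm2, was above 0 without reaching 2-fold. None of the 4 scaffold genes reached 2-fold in either direction. The median difference was 1.56 for the transglutaminases, 0.37 for all 8 genes and -0.01 for the scaffold genes. Without scaling these medians were 1.28, 0.088 and -0.29. Centred on spike-in controls they were 1.14, -0.058 and -0.44, so only that of the transglutaminases stayed well above 0. For Tgm3 the count rests on 1 of its 2 probes. These are bulk samples, in which fewer cells of a type and less RNA per cell cannot be told apart.

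Tgm1, the membrane-bound enzyme, read 2942 units in Pnpla1+/+ and 8764 in Pnpla1-/- skin. The scaled signal was 3.62-fold higher, a difference of 1.86, and 2.21% of all genes had a larger one. The knockout pool was the brighter one before any scaling too, by 2.98-fold.

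Tgm5 read 5442 units in Pnpla1+/+ and 10797 in Pnpla1-/- skin, a scaled difference of 1.27 or 2.41-fold. This difference lies nearest to the threshold among those counted. Without scaling it was 0.99, and centred on the E1A spike-in controls, RNA added in known amount, it was 0.84, so in both settings Tgm5 was not counted and 2 of the 8 genes remained.

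Tgm3, the cleavage-activated enzyme, gave 1 answer at each probe. At the probe that starts at base 2043 the signal was 1085 units in the Pnpla1+/+ pool and 3866 in the knockout pool, a difference of 2.12 or 4.33-fold. At the probe that starts at base 4009 it was 1710 and 1433 units, a difference of 0.03. The first probe thus separates the pools and the other does not. The differences of the probes lay 2.09 apart, a gap that no single factor per array changes. Of 5096 genes with at least 2 measured probes, 31 genes (0.608%) had probes as far apart, and the median gene had probes 0.18 apart.

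The first Tgm3 probe stands for the gene because its mean log2 signal over both arrays is the higher one. On the Pnpla1+/+ array alone the other probe is the brighter, and with each gene represented by its brightest probe on that array, a setting chosen after the values were seen, Tgm3 stood at 0.03, 2 of the 8 genes were counted as higher and the median of the transglutaminases was 0.85. The mean over both probes was 1.07. What each probe binds beside Tgm3 was not tested.

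Tgm2, the tissue transglutaminase, was measured by a pair of probes that agreed. The probe that starts at base 3355 (chr2:157942275-157942334) read 10298 and 11462 units in the Pnpla1+/+ and Pnpla1-/- pools, a difference of 0.44. The probe that starts at base 3199 (chr2:157942431-157942490) read 5805 and 6515 units, a difference of 0.45. Both differences were under 2-fold, and with spike-in centring the first came to 0.01.

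**Figure D1:**
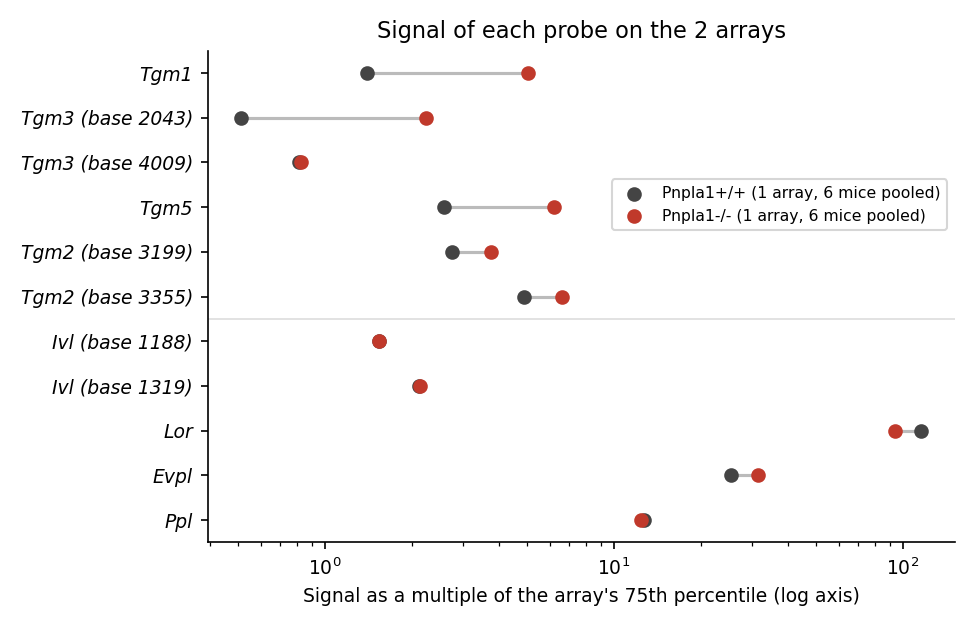
Signal of the 11 probes in the Pnpla1+/+ (grey) and Pnpla1-/- (red) pools, as a multiple of the 75th percentile of the array, on a log axis with 1 row a probe and the start of the probe in the transcript where a gene has more than 1. Each point is 1 array, and a row is read from grey to red and not against other rows, since probes differ in how well they bind. Red lies far to the right of grey for Tgm1, Tgm5 and 1 probe of Tgm3, while the points nearly coincide for the other Tgm3 probe, Ivl and Ppl.

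Among the scaffold genes no probe reached 2-fold in either direction. Involucrin, a rod-like early substrate, was measured by a probe that starts at base 1319 (chr3:92375367-92375426), which read 4457 units in the Pnpla1+/+ pool and 3711 in the knockout pool, a difference of 0.02. Its other probe, at base 1188 (chr3:92375498-92375557), read 3237 and 2671 units, a difference of 0.00. The direction of Ivl cannot be given, since its sign was kept in 7 of 13 alternative settings.

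Loricrin, the bulk protein of the envelope, was below 0. Its probe (chr3:91884206-91884265) read 243070 units in the Pnpla1+/+ pool and 162800 units in the knockout pool, with no saturated spot. The difference was -0.30, which is 1.23-fold lower, and 78.1% of all genes had a higher one. It was below 0 in all 13 alternative settings, from -0.72 with spike-in centring to -0.29 with another background correction, and at no setting did it reach 2-fold. The study names Lor among the genes down-regulated in the knockout by microarray. It also reports lower loricrin in knockout skin by qPCR and by immunofluorescence, which are separate measurements from these arrays.

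The plakins lay on either side of 0 at the main scaling. Envoplakin (chr11:116081921-116081980) read 53662 and 54496 units in the Pnpla1+/+ and Pnpla1-/- pools, a difference of 0.30, which turned to -0.12 with spike-in centring. Periplakin, its dimerization partner, read 26841 and 21588 units, a difference of -0.03, which was -0.31 without scaling and -0.46 with spike-in centring. The listed span of the Ppl probe (chr16:5086384-5086428) covers 45 of its 60 bases.

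In descending order the differences ran Tgm3 (first probe), Tgm1, Tgm5, Tgm2, Evpl, Ivl, Ppl and Lor. Each carries a modelled error of 0.20 on the log2 scale, which the scanner software attaches to a spot and which holds no spread between mice. Of the 7 steps between neighbours in this order, that from Tgm1 to Tgm5 (0.59) and that from Tgm5 to Tgm2 (0.83) exceeded the modelled error of the step, 0.29. The other 5 steps were smaller than that error, so by this measure Tgm3 was not separated from Tgm1, nor Tgm2 from Evpl, nor the scaffold genes from their neighbours. The lowest of Tgm1, Tgm3 at its first probe and Tgm5 stood 0.97 above the highest scaffold gene. A single scaling factor per array moves all genes alike and leaves such gaps as they are.

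**Figure D2:**
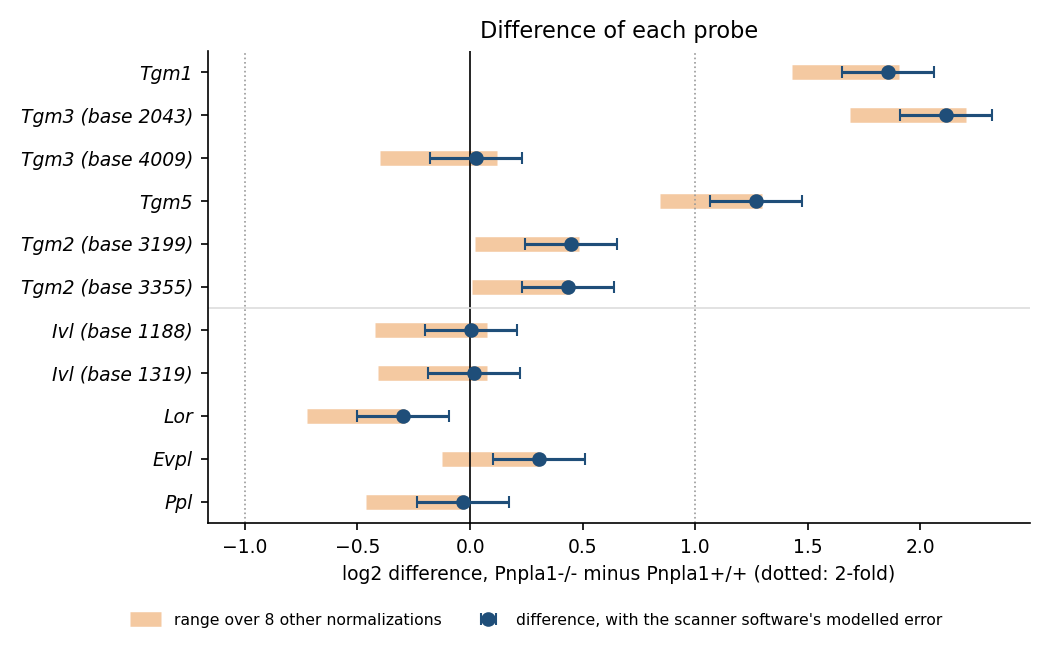
Log2 difference of each of the 11 probes, Pnpla1-/- minus Pnpla1+/+, with bars for the modelled error of the scanner software (0.20) and shaded ranges over 8 other ways to normalize or background-correct the arrays; dotted lines mark 2-fold. Tgm1 and the first Tgm3 probe stay right of the 2-fold line over their whole range, Tgm5 crosses it at 0.84, and no scaffold probe reaches it.

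**Figure D3:**
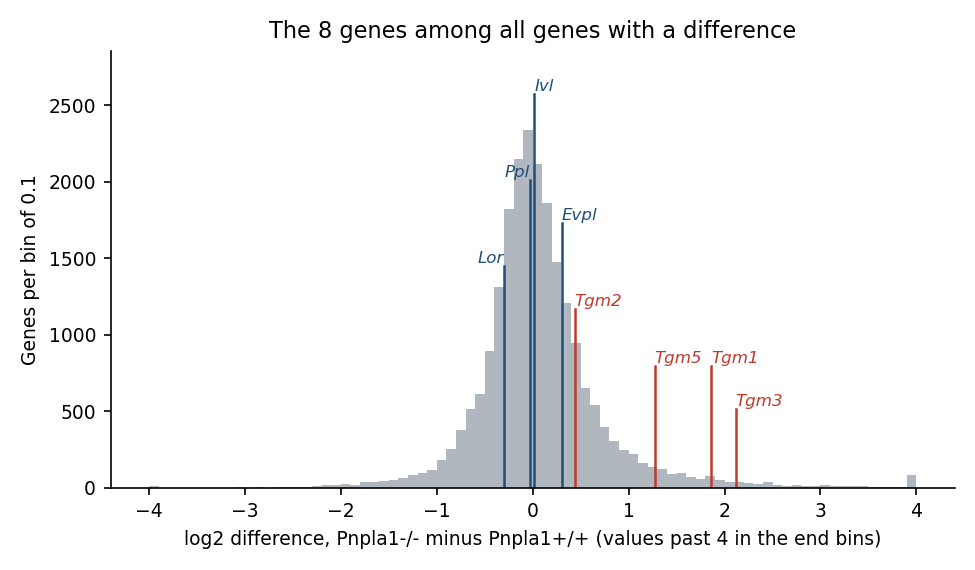
Number of genes per bin of 0.1 in log2 difference over all 22400 genes with a difference, with the 8 genes marked by lines (red, transglutaminases; blue, scaffold proteins); the height of a line carries no value. Tgm5, Tgm1 and Tgm3 (first probe) stand in the right tail, where 4.53%, 2.21% and 1.65% of all genes lie higher, and the scaffold genes stand within the central mass. The other Tgm3 probe, at 0.03, would stand in the central mass.

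Other genes of the family were looked at next, from a list of 5. F13a1, the A chain of coagulation factor XIII and a transglutaminase of blood and macrophages, read 13400 units in Pnpla1+/+ and 26318 in Pnpla1-/- skin, a difference of 1.26 at 1 probe and 1.35 at the other. Tgm6 was dim, with 55.5 and 71.9 units and a difference of 0.65. Tgm4, the prostate enzyme, was above background in only 1 pool and was at least 1.30-fold higher in Pnpla1-/- skin, a bound that fell to a log2 difference of 0.09 without scaling and was lost with spike-in centring. Tgm7 and Epb4.2, the catalytically inactive member of red blood cells, were not well above background on either array. Thus 1 of 3 genes with a value was at least 2-fold higher, and this call was lost without scaling and with spike-in centring, where F13a1 came to 0.83.

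Of 7 genes listed under activation and inhibition of transglutaminases, 1 was at least 2-fold higher and 0 were lower. Their median was 0.64, and all 7 were above 0 at the main scaling. Whether each of them acts on a transglutaminase was not tested. That gene was Ctsd, the lysosomal protease cathepsin D, which takes part in the maturation of TGM1, at 32971 and 54581 units and a difference of 1.01. Tmem79, a membrane protein of the lamellar granule system, stood at 0.75. Furin, a proprotein convertase, stood at 0.69, and the protease legumain (Lgmn) at 0.64. Ctsd lay so near the threshold that 0 of the 7 reached 2-fold in 6 of 13 alternative settings, namely median scaling, no scaling, the percentile over spots well above background, spike-in centring, quantile normalization and cyclic loess. The median of the list was 0.35 without scaling and 0.21 with spike-in centring, and Ctsl, picked out for this after its values were seen, turned below 0 in both and with quantile normalization.

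Other listed substrates of the envelope were mixed. This list holds no gene of the Sprr or Lce families, so it is not the full set of envelope proteins. Of 17 genes, 3 were at least 2-fold higher and 0 lower, and their median was 0.30. Repetin (Rptn), a calcium-binding matrix protein, read 603 units in Pnpla1+/+ and 19047 in Pnpla1-/- skin, a difference of 5.26. Cornifelin (Cnfn) read 25107 and 105221 units, a difference of 2.35. The stefin gene Csta1, listed as Csta on the array, read 471 and 1584 units, a difference of 2.03. These 3 genes stayed past 2-fold in all alternative settings of scaling and background, whereas the median of the list turned to -0.13 with spike-in centring. Without scaling 1 gene was at least 2-fold lower, beside 6.37% of all genes. With spike-in centring 2 genes were, beside 9.75% of all genes, namely Crnn (-1.19) and S100a10 (-1.14), named after their values were seen. Cst6, a cystatin that restrains the proteases acting on TGM3, stood at 0.98.

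Other plakins and partners of periplakin were near the background, with 0 of 9 higher, 1 lower and a median of -0.12. The gene counted as lower was Dst, which encodes the hemidesmosomal plakin dystonin, at -1.12, although another of its probes stood at 0.19. Krt8, a keratin of simple epithelia, stood at -0.84 and epiplakin (Eppk1) at -0.57. Desmoplakin (Dsp), which ties keratin filaments to desmosomes, stood at 0.52. Without scaling and with spike-in centring 2 of the 9 were at least 2-fold lower and the medians were -0.40 and -0.55, and with the mean of all probes 0 were lower. In the first 2 of these settings 6.37% and 9.75% of all genes were at least 2-fold lower.

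Of 10 enzymes and transporters that build and attach the ceramide coat, 5 were at least 2-fold higher and 0 lower, with a median of 1.03, and 9 were above 0. The 5 were Ugcg (1.26), which adds glucose to ceramides, Sdr9c7 (1.22), a dehydrogenase that acts on the oxidized linoleate, the ceramide synthase Cers3 (1.22), the hydroxylase Cyp4f39 (1.18) and the epoxide hydrolase Ephx3. Sdr9c7 read 577 and 1108 units, and Ephx3 read 1628 and 2873 units, a scaled signal 2.15-fold higher. The lipoxygenase Aloxe3, picked out after its value was seen, was the exception at -0.09. Without scaling and with spike-in centring 0 of the 10 passed 2-fold, at medians of 0.75 and 0.60. With median scaling the count was 5, but the median, 0.96, fell short of 2-fold. The study singled out several of these genes on the same arrays, so their shared direction is not independent evidence. It also reports those genes as higher than in heterozygous (Pnpla1+/-) mice, for which this series holds no array.

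Among 19 measured regulators of envelope genes, 5 were at least 2-fold higher, 1 was lower and the median was 0.20. Grhl3, a transcription factor that drives Tgm1 and barrier formation in the embryo, read 4689 units in Pnpla1+/+ and 21384 in Pnpla1-/- skin, a difference of 2.47. Fosl1, an AP-1 subunit, read 176 and 583 units, a difference of 2.01. Ovol1, a zinc-finger factor of differentiating keratinocytes, read 1056 and 2620 units, a difference of 1.59. The remaining higher genes were the AP-1 subunit Junb (1.27) and the nuclear receptor Ppard (1.27). Fos, another AP-1 subunit and an immediate early gene, read 12022 and 4914 units over 10 spots and was the gene counted as lower, at -1.01. Fos stood at -0.98 with cyclic loess, where 0 genes were counted as lower. Without scaling and with spike-in centring 3 genes passed 2-fold upwards, and the medians of the list were -0.08 and -0.23.

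Response genes of Nrf2, a factor that induces some envelope genes when loricrin is lacking, did not move together. Of 10 genes, 2 were at least 2-fold higher and 1 lower, with a median of 0.07. The cystine transporter gene Slc7a11 read 29.7 units in Pnpla1+/+ and 900 in Pnpla1-/- skin, a difference of 5.20. Hmox1, heme oxygenase, read 11430 and 3200 units, a difference of -1.55. Osgin1 stood at 1.02 and Nqo1, the quinone reductase, at 0.98. The wild-type signal of Slc7a11 was dim, and with normexp background correction its difference was 3.72. In 6 of 13 alternative settings 1 gene, not 2, was at least 2-fold higher. Without scaling and with spike-in centring 2 genes were at least 2-fold lower, beside 6.37% and 9.75% of all genes, and the medians were -0.22 and -0.36.

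**Figure D4:**
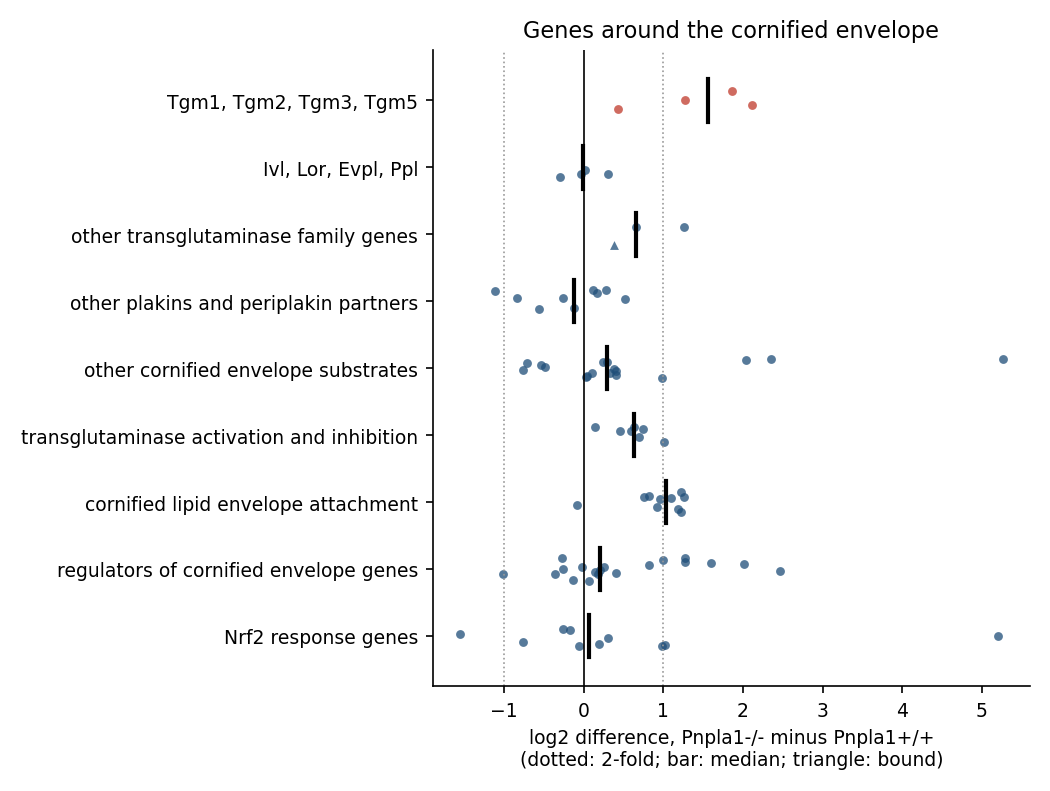
Log2 difference of each gene of the 9 lists, Pnpla1-/- minus Pnpla1+/+, with 1 point a gene, a triangle where the value is a bound, a bar at the median of the list and dotted lines at 2-fold; points are spread vertically for legibility. At the main scaling, the median of Tgm1, Tgm2, Tgm3 and Tgm5 (1.56) and that of the genes of lipid attachment (1.03) lie past 2-fold, and that of Ivl, Lor, Evpl and Ppl (-0.01) lies at 0. The lipid attachment median was 0.96 with median scaling. The transglutaminase median was 0.85 with the brightest probe on the Pnpla1+/+ array. The scaffold median was -0.29 without scaling and -0.44 with spike-in centring.

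For each of the 8 genes, the gene with the nearest difference among 74 genes of these lists was sought. The pairs were Tgm1 with Fosl1 (1.86 and 2.01), Tgm3 with Csta1 (2.12 and 2.03), Tgm5 with Ppard (1.27 and 1.27) and Tgm2 with the calpain gene Capn1 (0.44 and 0.45). For the scaffold genes they were Ivl with annexin A1, Anxa1 (0.02 and 0.03), Lor with Gata3 (-0.30 and -0.27), Evpl with Srxn1 (0.30 and 0.30) and Ppl with Keap1 (-0.03 and -0.02). Likeness here is a distance between 2 differences from 2 arrays and cannot single out a partner. Within 0.08, the technical SD of a difference from repeated spots, 60 genes lay as near to Tgm3 and 99 to Tgm1, but 3547 genes to Ivl and 3648 to Ppl.

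The nearest gene on each side of each of the 8 on the chromosome was read as well, in the order of a reference annotation. Beside Tgm1, Tinf2 and Rabggta stood at -0.02 and 0.46. Beside Tgm2, Rprd1b and D630003M21Rik stood at -0.06 and 0.12. Beside Tgm3, Stk35 stood at -0.19 and AU015228 was below background, and Tgm5 sits between Epb4.2 and Tgm7, both below background. None of these measured neighbours of the transglutaminases reached 2-fold. Beside Evpl, Ten1 and Srp68 stood at -0.12 and -0.11. Beside Ppl, Ubn1 stood at -0.16 and Sec14l5 was below background. Ivl and Lor lie in the epidermal differentiation complex, a cluster of barrier genes on chromosome 3. Beside Ivl, Sprr4 stood at -0.92 and Smcp, above background in only 1 pool, gave a bound of -0.42. Beside Lor, Pglyrp3, which encodes a peptidoglycan recognition protein, stood at 2.92 and Prr9 at -0.59. Among these nearest measured neighbours, Pglyrp3 was the one past 2-fold at the main scaling. With the next gene on each side counted too, Sprr1a, near Ivl, was past 2-fold at 2.19, and Bpi, near Tgm2, gave a bound of 1.03.

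The promoters were read to set the groups side by side. RefSeq promoters (GRCm38.p6, 250 bases before to 50 after a start) were at hand for Tgm1, which has 2, and for Tgm3, Tgm5, Ivl and Lor; those of Tgm2, Evpl and Ppl were not analysed here. The 150 bases before the start are shown for the genes with matches in them and for 1 start of Tgm1, 5′ to 3′ on the strand of the gene. The capitals mark the letters TGANTCA, the AP-1 site, and TATAAA, the TATA box, searched on both strands.
Ivl (chr3:92573736-92573885, minus strand): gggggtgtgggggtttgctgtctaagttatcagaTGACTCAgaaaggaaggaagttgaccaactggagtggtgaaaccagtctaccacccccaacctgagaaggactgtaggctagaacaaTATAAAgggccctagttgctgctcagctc
Lor (chr3:92083143-92083292, minus strand): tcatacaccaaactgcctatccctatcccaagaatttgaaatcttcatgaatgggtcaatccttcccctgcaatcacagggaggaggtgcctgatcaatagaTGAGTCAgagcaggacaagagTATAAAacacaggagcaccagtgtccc
Tgm3 (chr2:130012190-130012339, plus strand): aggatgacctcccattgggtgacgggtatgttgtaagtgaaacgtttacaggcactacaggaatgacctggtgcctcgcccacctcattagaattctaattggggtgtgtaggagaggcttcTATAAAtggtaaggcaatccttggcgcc
Tgm1 (chr14:55713493-55713642, minus strand): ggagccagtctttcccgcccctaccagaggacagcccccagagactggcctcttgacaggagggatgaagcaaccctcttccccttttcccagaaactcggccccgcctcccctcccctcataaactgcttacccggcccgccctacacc
The AP-1 letters stood in Ivl, from -116 to -110, and in Lor, from -48 to -42 relative to the start, and 7.81% of 32851 promoters hold them. The TATA letters stood in Ivl, Lor and Tgm3, and 13.6% of promoters hold them. The letters AACCNGTT, bound by grainyhead-like factors such as Grhl3, were in Tgm5 across the start, from -4 to 3 (2.09% of promoters), and none of the 6 promoters held the palindrome AACCGGTT (0.146%). The letters TGACNNNGC of Nrf2 sites were in Tgm5 only, on the minus strand from 11 to 19 (12.4%). A match describes letters in a window and was not set against binding.

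The cell types that whole skin holds were followed through marker lists. Of 6 suprabasal keratinocyte markers, 2 were at least 2-fold higher (Dsc1, 1.20, and Sfn, 1.04) and 0 lower, with a median of 0.44; their summed signal was 267 times the 75th percentile in Pnpla1+/+ and 304 times in Pnpla1-/- skin, and Krt10, the brightest, stood at 0.20. Basal markers had a median of 0.14 over 7 genes, with Krt14 at 1.35 and Krt15 at -1.67; their summed signal was 199 and 230, and Krt5, the brightest, stood at 0.22. Granular layer markers, of the layer in which Tgm3 and Lor are made, were split. Of 7 genes, Flg2 read 20467 and 198 units (-6.41) and Slurp1 3575 and 109 units (-4.75), while Klk7 stood at 1.05 and Casp14 at 0.74. Their median was 0.28, their summed signal 112 and 125, and Asprv1, the brightest, stood at 0.28. The small values here turn with the scaling. With spike-in centring the median was 0.01 for the suprabasal, -0.28 for the basal and -0.15 for the granular list, with Krt10 at -0.23 and Asprv1 at -0.15, and both genes were also below 0 without scaling. Klk7, the granular gene counted as higher, fell short of 2-fold in 4 of 13 alternative settings.

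Of 15 hair follicle markers, 9 were at least 2-fold lower and 0 higher, with a median of -1.01. Krt72 stood at -3.41, Krt31 at -1.47, Krt86 at -1.34 and Krt35 at -1.33. The 1 marker above 0 was Foxn1, at 0.52, picked out after its value was seen. The summed signal of the list was 106 in the wild-type pool and 55.7 in the knockout pool, and Krt71, the brightest, stood at -0.82. The part of these hair follicle values in the difference of Tgm3, which the follicle also makes, was not tested.

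Of 10 leukocyte and macrophage markers, 4 were at least 2-fold higher and 0 lower, with a median of 0.86. Ptprc stood at 1.51, Adgre1 at 1.24 and Cd163 at 1.13, and Fcer1g read 8489.9 and 13989.8 units. The list summed to 22.4 in the wild-type pool and 35.5 in the knockout pool, and Csf1r, the brightest, stood at 0.67. The member below 0 was Itgam, at -0.03, picked out after its value was seen, although another of its 3 probes stood at 2.84. Of 6 red blood cell markers, 3 were at least 2-fold higher and 0 lower, with a summed signal of 73.4 and 140; Alas2 stood at 1.32, Slc4a1 at 1.11 and Hbb-b1 at 1.04, and Hba-a1, the brightest, stood at 0.83. The part of both in the differences of F13a1 and Tgm2 was not tested. Over the 13 alternative settings, from 1 to 5 leukocyte genes, from 0 to 3 red blood cell genes and from 0 to 2 suprabasal genes were at least 2-fold higher, while from 7 to 13 hair follicle genes were at least 2-fold lower.

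The remaining lists had 0 genes past 2-fold in either direction at the main scaling. Endothelial markers had a median of 0.32 over 9 genes, led by Emcn (0.61), with Egfl7 the brightest at 0.30. Fibroblast markers had a median of -0.16 over 8 genes, with Dpt at -0.91. Skeletal muscle markers had a median of 0.07 over 8 genes and Myh3 at 0.57. Adipocyte markers had a median of 0.10 over 5 genes, with Cfd at 0.58 and Lep below background on both arrays. Melanocyte markers had a median of -0.35 over 6 genes, with Pmel at -0.44. With spike-in centring the medians were -0.11 for endothelial, -0.59 for fibroblast, -0.36 for muscle, -0.33 for adipocyte and -0.78 for melanocyte markers. There, as without scaling, 1 fibroblast gene (Dpt, -1.34 with spike-in centring) was at least 2-fold lower, beside 9.75% of all genes with spike-in centring and 6.37% without scaling.

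**Figure D5:**
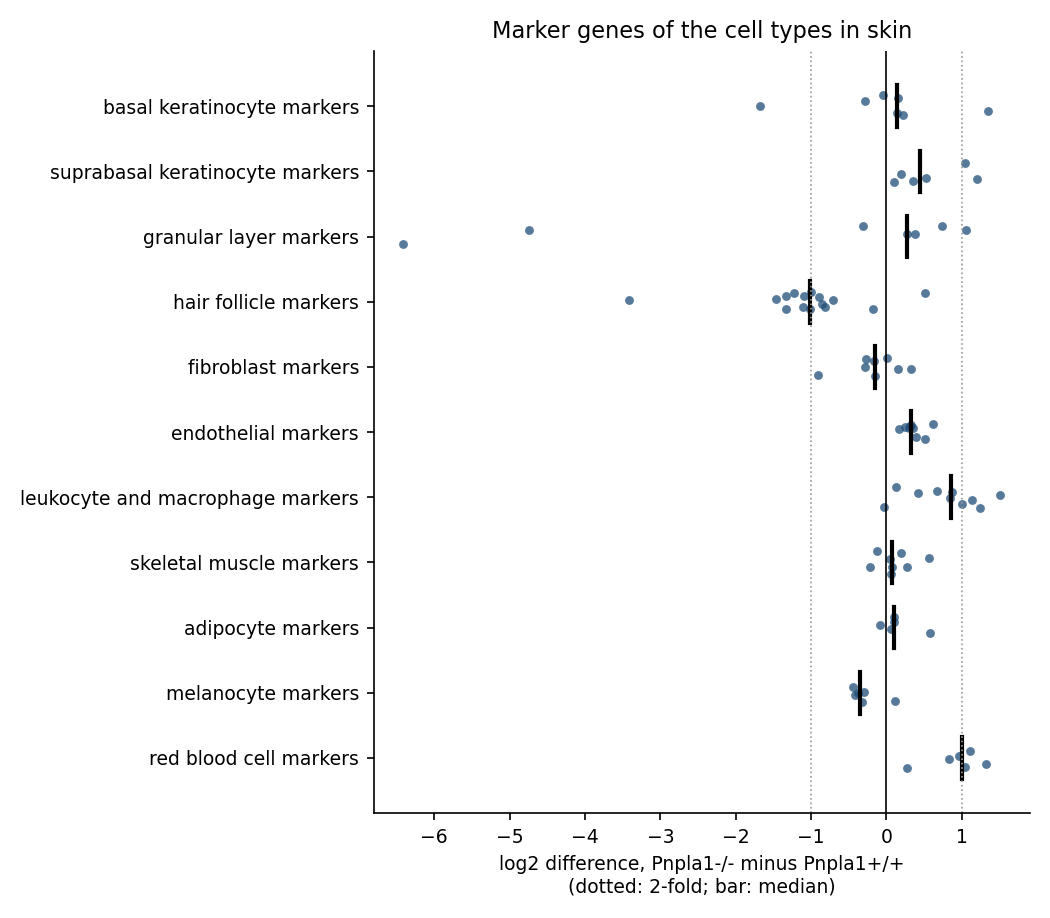
Log2 difference of each marker gene in the 11 cell type lists, Pnpla1-/- minus Pnpla1+/+, with 1 point a gene, a bar at the median and dotted lines at 2-fold. Most hair follicle markers cluster around -1, leukocyte and red blood cell markers lie mostly between 0 and 1.51, and Flg2 and Slurp1 stand apart among the granular layer markers.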

How the data were processed

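Skin RNA of 6 mice a genotype was measured on 1 Agilent 1-colour array each. Per the submitters' processing notes, the images were read with Agilent Feature Extraction 11.5.1.1. The authors deposited for each spot a background-subtracted intensity, its modelled error, the mean and local background intensity, and flags, and a table of ratios of that intensity to 1 factor per array (2109 and 1734, column medians 0.0956 and 0.102), next to the 75th percentile. By the study's methods the data were then taken into GeneSpring GX, with a global normalization of the intensities. Whether these ratios are the result of that step was not tested. Positions are those of the files, on mm9.

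Each array of 43020 spots (71.7% well above background in Pnpla1+/+, 73.3% in Pnpla1-/-, 0 saturated) was divided by its 75th percentile, outlier-flagged spots were dropped from both arrays (138 flagged on the first and 82 on the other), repeated spots were averaged on the log2 scale and the brightest probe stood for its gene (Python 3.11.15, numpy 2.4.6, pandas 2.3.3, matplotlib 3.10.9). Of 30193 genes, 20705 were measured on both arrays and 1695 gave a bound from 1, taken against a floor, the lowest signal that was well above background, or against the dim signal itself where that exceeded the floor. Repeated spots of 309 probes, with 8 spots or more each, gave a technical SD of 0.08 for a difference. Precision is limited by the number of arrays. The slide could not enter as a block, with 1 array a genotype. The calculation was tested on simulated data.

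The 8 genes and all lists were chosen with earlier results of these data known. Named are the 8 genes, Pnpla1, up to 4 genes of each other list by size of difference, every gene of a list of 5, the brightest gene of a marker list, the nearest gene in difference and neighbours in RefSeq order (GRCm38.p6). The brightest marker, other genes printed beside a count and the neighbours were added to that rule afterwards. Gene names are those of the array, with older names matched by alias. Amino acid sequences were not analysed here, and 1 gene of a marker list is not reported.

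Alternatives were median scaling, no scaling, the percentile over spots well above background, spike-in centring, quantile normalization, cyclic loess and normexp with an offset of 50 (limma 3.58.1, R 4.3.3), the authors' ratios, the mean of probes, both filters on dim probes, flagged spots kept, thresholds of 1.5-fold and 3-fold and, added after seeing the data, the brightest probe on the Pnpla1+/+ array.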

Additional observations from a re-analysis of the deposited data

How the results depend on the processing

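No paired analysis was possible because each genotype has 1 array. The median difference of the 8 genes, 0.37, moved to 0.088 without scaling, 0.23 with quantile normalization, -0.058 with spike-in centring and 0.17 with the brightest probe on the Pnpla1+/+ array, the last chosen after seeing the data; the probe of Tgm3 is what changed there. The count of higher genes was 2 in place of 3 without scaling and with spike-in centring (Tgm5 not counted), with that probe choice (Tgm3 not counted) and at 3-fold, and 3 in the other settings, and the count of lower genes was 0 throughout. Tgm1 was past 2-fold in 13 of 13 settings, Tgm3 in 12 and Tgm5 in 11. The Tgm3 tally repeats the choice of its first probe or averages that probe in, so it does not measure how firm the Tgm3 difference is. The other Tgm3 probe ran from -0.40 to 0.12 over 8 other ways to normalize or background-correct the arrays. Over all genes, 1497 higher and 682 lower became 996 and 1425 without scaling, where the median of all genes shifted by -0.28, and 826 and 2163 with spike-in centring, shifted by -0.43. They became 960 and 321 with normexp, 3047 and 1107 with no filter on dim probes (median shifted by 0.10), 3083 and 2095 at 1.5-fold and 681 and 229 at 3-fold. The higher share of changed genes, 68.7%, was 41.1% without scaling, 27.6% with spike-in centring and 58.8% with quantile normalization. Other scalings by a single factor per array move all differences alike, while quantile normalization, cyclic loess and normexp do not. The spike-ins stood 0.43 higher on the Pnpla1-/- array than the 75th percentile scaling implies; the cause was not tested. All 11 probes were well above background, so signal over background did not limit them.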
